A study of Arvicanthis niloticus with 7 samples.

Results

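The ATP-driven pumps and lipid flippases of the liver were examined in NRs (Nile rats, *Arvicanthis niloticus*, a rodent that develops type 2 diabetes on carbohydrate-rich diets) fed palm fruit juice (PFJ). The set comprised every probe of the array whose gene symbol began with *Atp1*, *2*, *4*, *6*, *7*, *8*, *9*, *10*, *11*, *12* or *13* followed by a letter, which excluded the *Atp5* genes of mitochondrial ATP synthase. This rule gave 83 probes for 54 genes, out of 23141 probes with a symbol and 16110 genes. No expression value entered the rule. The PFJ group (3 arrays) came from male NRs put at 3 weeks of age on a high-carbohydrate diet with PFJ at 5.4 g of gallic acid equivalents per kg of diet, and kept on it for 4 weeks. The control group (4 arrays) came from males of the same age kept for 4 weeks on the same diet without PFJ. In both groups carbohydrate, fat and protein gave 70, 10 and 20% of the energy. The RNA, labelled as liver, was read on a mouse array (Illumina MouseRef-8 Version 2), so each probe matches a mouse transcript. A probe that differs from the NR transcript can be dim whatever the level of the RNA, so values are compared between arrays for 1 probe and not between probes. In whole-tissue RNA, fewer cells of a type and less RNA per cell cannot be told apart.

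Ion pumps use the energy of ATP to move ions against their gradients. P-type pumps, which pass through a phosphorylated state, include the sodium pump of the plasma membrane, the calcium pumps of the endoplasmic reticulum and plasma membrane, the copper pumps that load ceruloplasmin and export copper into bile, and the P4 ATPases, most of which flip phospholipids from the outer to the inner leaflet of a membrane. The V-ATPase is a rotary machine built differently: its V1 sector in the cytosol hydrolyses ATP and turns its V0 sector in the membrane, which carries protons into lysosomes, endosomes and secretory vesicles. In kidney, as general background, the sodium pump and the V-ATPase are abundant in tubule cells, where they drive reabsorption and acid secretion.

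Control replicates 3 and 4 stood apart from the other arrays. Across 3734 tested genes, which are not independent replicates, the correlation between them was r = 0.986 and that with the remaining arrays 0.759 to 0.778, against 0.955 to 0.979 among the other 5. Of 13 tested hepatocyte genes, 12 were lower on both than on every other array, and their summed normalised signal was 522151 to 554810 with PFJ, 501580 to 526078 in the first pair of controls, and 9163 and 13560 in controls 3 and 4. All 4 tested kidney genes (*Miox*, *Napsa*, *Podxl* and *Slc12a3*) were higher on both, with sums of 4432 to 5101 with PFJ, 4844 to 5605 in the first pair of controls, and 102483 and 99152 in controls 3 and 4. Of the 22 hepatocyte genes on the array, 8 were detected on both of these arrays and 16 on any other, so hepatocyte signal was reduced there and not absent. Of the 20 kidney genes on the array, 10 were detected on both of these arrays and 4 on any other. *Umod*, *Slc12a1* and *Slc34a1*, which define tubule segments, were among the 6 detected there alone, while *Aqp2*, *Lrp2* and *Kap* were among the 10 detected nowhere. The label of these 2 arrays as liver was therefore not borne out by the markers, and fold changes below are given with and without them.

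A probe was called detected at a detection p under 0.01. Of the 83 pump and flippase probes, 51 (61.4%) were detected on no array, compared with 74.9% of all named probes, and 17 (20.5%) on all 7, compared with 14.8%. The undetected probes had log2 values of 4.50 to 6.34, near the background of the arrays, where the lowest detected value was 6.22 to 6.52. Probes detected on at least 3 arrays were kept (23 of the 83), and the brightest kept probe on average stood for its gene, so that 15 genes were tested. Another 7 genes had a detected probe but none that was kept, and 32 had no detected probe. The 32 comprised *Atp1b2*, *Atp1b3*, *Atp1b4*, *Atp4a*, *Atp4b* and *Atp12a* of the sodium pump and H,K-ATPase class, *Atp2a1*, *Atp2b2*, *Atp2b4* and *Atp2c1* among calcium pumps, 13 V-ATPase genes, 7 P4 ATPases and *Atp13a4* and *Atp13a5*. No claim on the NR transcript follows for these.

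With PFJ, none of the 15 tested genes passed the test. At an adjusted p under 0.05 from limma 0 members were higher and 0 lower (0% of all 3734 genes in either direction), and at an unadjusted p under 0.05 it was again 0 and 0, where 2.17% of all genes were higher and 2.60% lower. The PFJ and control arrays overlapped in all 15 genes, while 3.45% of all genes had every PFJ array above and 3.62% every PFJ array below the control arrays. Of the 15 log2 fold changes, 13 were negative and 2 positive, with a median of -0.28, whereas 47.7% of all genes were negative and their median was 0.03. The 13 include *Atp6v1c2*, which was detected on no PFJ array and passed the filter through control arrays alone, so this count is a description. Without control replicates 3 and 4, a choice made after seeing the data, 6 of 12 testable members were positive and 6 negative, with a median of -0.07 against -0.01 for all 3543 genes. In that fit 0 members passed an unadjusted p under 0.05 (1.35% of all genes higher, 1.44% lower) and 0 an adjusted one. The plot of fold changes shows both fits side by side.

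**Figure D1:**
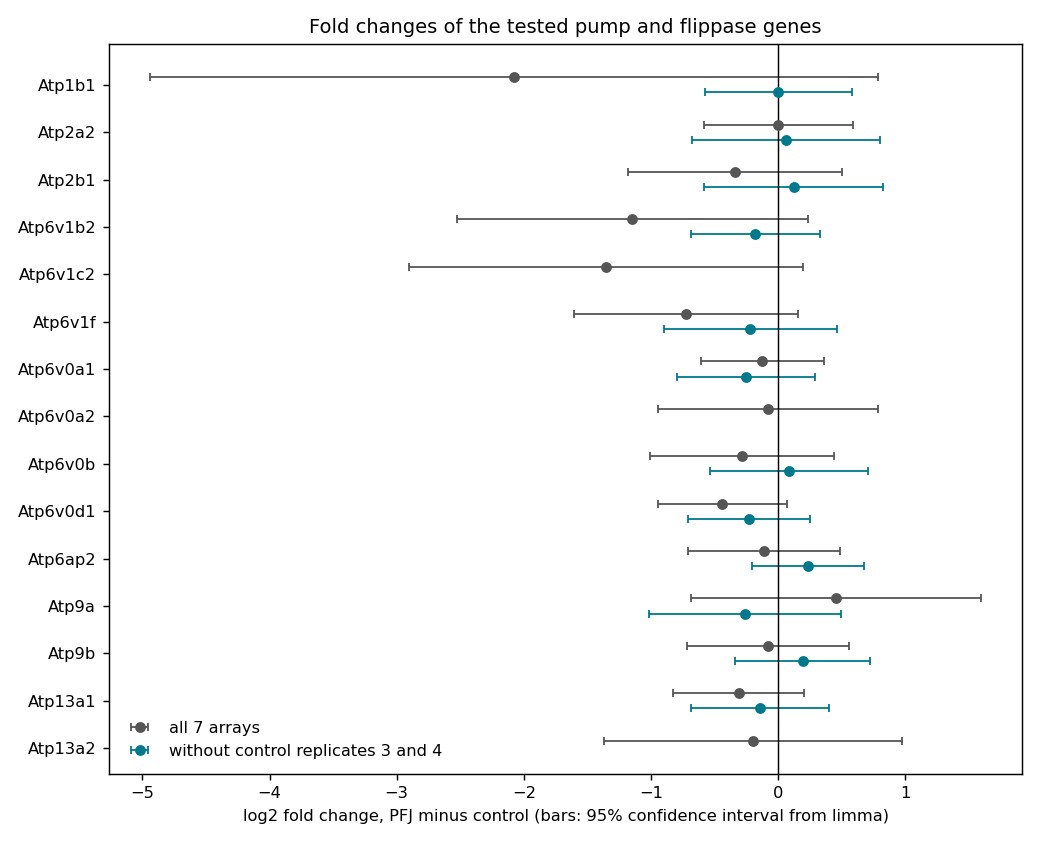
Log2 fold change (x axis, PFJ minus control) of the 15 tested pump and flippase genes, with 95% confidence intervals from limma, over all 7 arrays (grey) and without control replicates 3 and 4 (teal). All intervals hold 0. The grey points run from -2.08 to 0.45 and the teal ones from -0.26 to 0.23. *Atp6v1c2*, *Atp6v0a2* and *Atp13a2* have no teal point because fewer than 3 of the 5 remaining arrays detected them.

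The pattern that the members did show was between control replicates 3 and 4 and the rest. Both arrays lay above every other array for 9 of the 15 genes (60%; 26.8% of all tested genes) and below every other array for 1 (6.67%; 30.2% of all). With scaling to equal medians the members gave the same counts, and 38.1% of all genes lay above and 18.2% below. The gap was at least 1 on the log2 scale, upwards, for *Atp1b1*, *Atp6v1b2* and *Atp6v1c2* (3 genes, 20%; 7.74% of all) and downwards for 0 (10.7% of all). *Atp6v1c2*, counted in the 9 and in the 3, passed the filter through control arrays alone. Of the 12 members detected on all 7 arrays, control replicates 3 and 4 were above every other array for 8 and below for 1. Among all genes so detected the shares were 29.3 and 28.3%. Since these 2 arrays were singled out by their own values, the counts are a description with no test. The kidney and hepatocyte sums above moved with them, and their part in the values of the pumps was not tested. The plot of member values by array shows each gene.

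**Figure D2:**
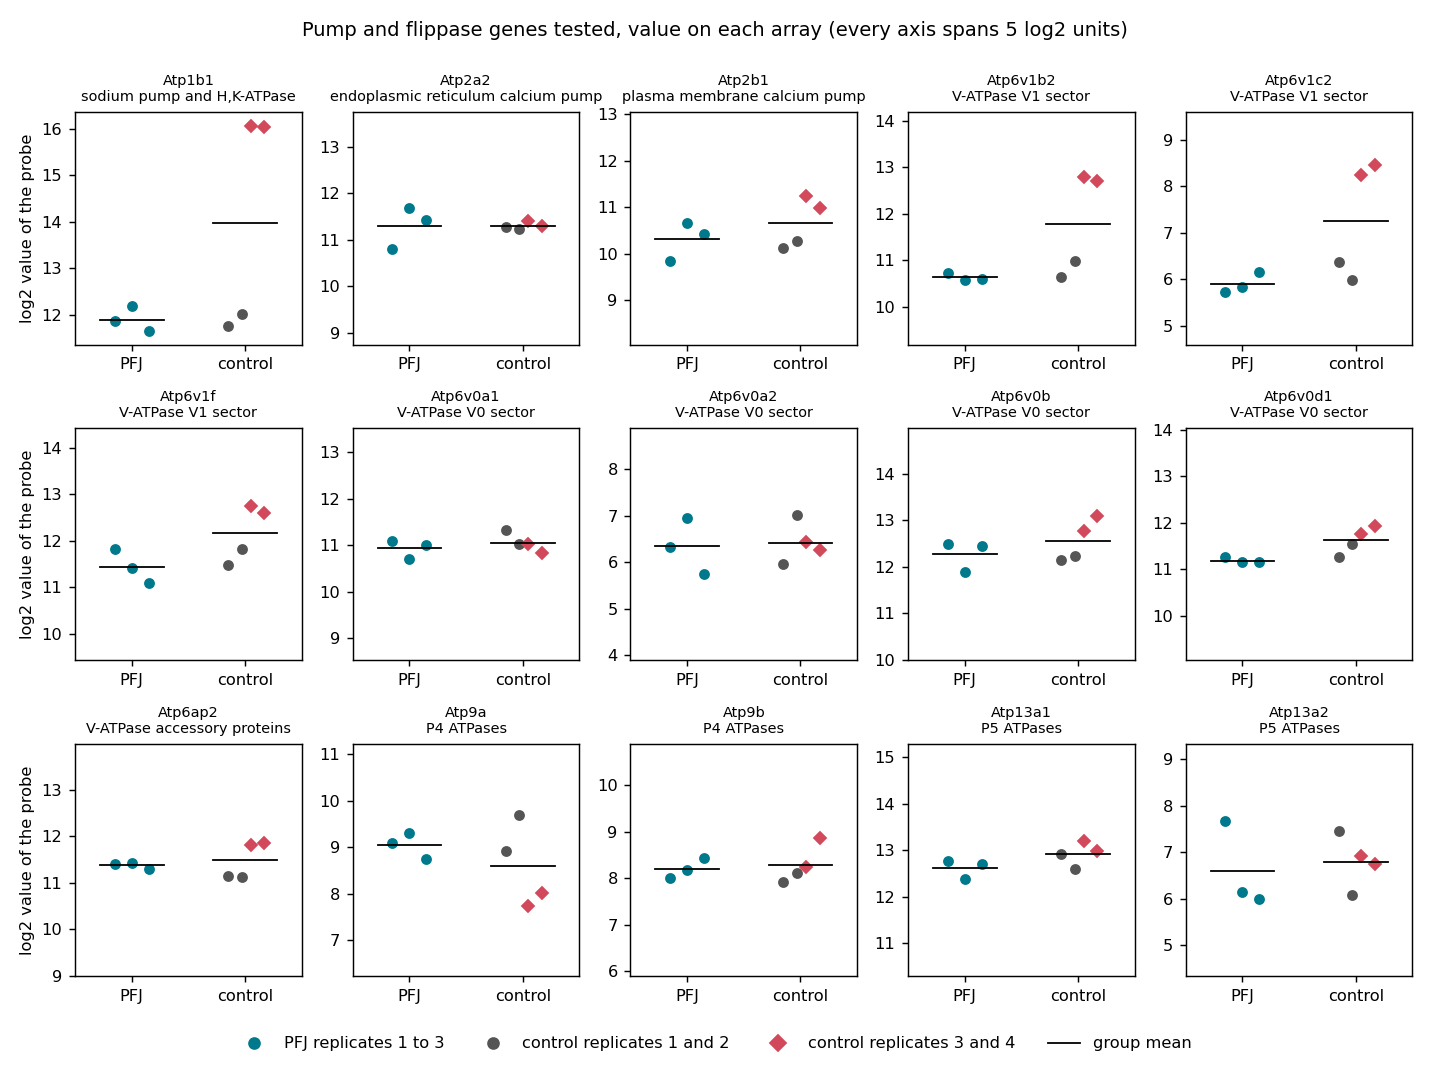
Log2 value of the probe (y axis, the same span in each panel) on the PFJ arrays (teal, left) and the control arrays (grey circles for replicates 1 and 2, red diamonds for replicates 3 and 4, right) for the 15 tested genes, with lines at the group means. *Atp1b1* reaches 16.06 and 16.04 on control replicates 3 and 4 and lies between 11.65 and 12.18 on the other arrays, whereas *Atp2a2* is between 10.80 and 11.70 throughout.

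Among sodium pump genes, *Atp1b1* alone was tested, and the catalytic subunits were not analysed here. It encodes the beta subunit that escorts the catalytic subunit to the plasma membrane. Its log2 values were 11.85, 12.18 and 11.65 on PFJ replicates 1 to 3, and 11.76, 12.02, 16.06 and 16.04 across control replicates 1 to 4. The first pair of controls lay within the PFJ range, and control replicates 3 and 4 were at least 3.86 above every other array, which was the widest gap among the 15 tested genes. The PFJ mean was 11.89 ± 0.27 (SD, n = 3) and the control mean 13.97 ± 2.41 (SD, n = 4), a log2 fold change of -2.08 (standard error 1.21, limma adjusted p = 0.561). Without control replicates 3 and 4 it was 0.0033, with a 95% confidence interval of -0.58 to 0.58. At this precision an effect of PFJ on *Atp1b1* within that interval was not detectable.

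The FXYD proteins are small membrane subunits that tune the sodium pump, and 3 of 7 were tested. *Fxyd2*, the gamma subunit of the kidney enzyme, had log2 values of 8.02, 7.89 and 7.87 with PFJ, and 8.13, 8.69, 13.33 and 13.14 across control replicates 1 to 4. As for *Atp1b1*, control replicates 3 and 4 were far above the rest. *Fxyd6*, at 11.92, 11.78 and 12.06 with PFJ and 11.57, 12.02, 12.98 and 12.71 in controls, was likewise higher on these arrays, while *Fxyd5* ranged from 6.36 to 6.69 with PFJ and from 6.09 to 6.62 in controls. The log2 fold changes were -2.90 for *Fxyd2*, -0.40 for *Fxyd6* and 0.12 for *Fxyd5*, and -0.49, 0.13 and -0.04 without the 2 arrays. Unlike for *Atp1b1*, every PFJ array was below every control array for *Fxyd2*, replicates 1 and 2 included, as for 3.62% of all genes. Its limma adjusted p was 0.561, and the groups overlapped for *Fxyd5* and *Fxyd6*.

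*Atp2a2* encodes SERCA2, the pump that returns calcium to the endoplasmic reticulum. It read 10.80, 11.70 and 11.43 on the PFJ arrays, and 11.28, 11.23, 11.41 and 11.30 across control replicates 1 to 4. The control arrays lay inside the PFJ range, including replicates 3 and 4. The log2 fold change was 0.0024 (standard error 0.25, limma adjusted p = 0.996), with a 95% confidence interval of -0.58 to 0.59, and 0.06 (-0.68 to 0.80) without control replicates 3 and 4. A second *Atp2a2* probe, also detected on all arrays, read 9.12, 9.82 and 9.42 with PFJ and 9.37, 9.53, 9.30 and 8.94 in controls. Both probes were lowest among PFJ arrays on replicate 1 and highest on replicate 2. With scaling to equal medians the log2 fold change of *Atp2a2* was -0.18, as was the median of all genes. *Atp2a3*, the SERCA of haematopoietic and some epithelial cells, was detected on control replicate 4 alone, at 6.71.

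*Atp2b1* encodes PMCA1, the plasma membrane calcium pump found in most cells. It had values of 9.85, 10.66 and 10.43 with PFJ, and 10.11, 10.28, 11.24 and 10.99 across control replicates 1 to 4. Control replicates 3 and 4 were the highest, but by only 0.32 over PFJ replicate 2. Its log2 fold change was -0.34 (standard error 0.36, limma adjusted p = 0.653), and 0.12 without the 2 arrays. *Calm3*, one of the genes of calmodulin, which activates these pumps, was 12.28, 11.92 and 12.31 with PFJ and 12.55, 12.23, 14.07 and 14.26 in controls, a log2 fold change of -1.11, and -0.22 without replicates 3 and 4.

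*Atp2b3*, a PMCA best known from neurons, was detected on control replicates 3 and 4 and on no other array, by both of its probes. The first read 5.21, 4.94 and 4.93 with PFJ, and 4.68, 4.71, 9.95 and 9.78 across control replicates 1 to 4. The second read 4.74, 5.13 and 5.30 with PFJ, and 5.86, 4.75, 8.89 and 8.49 in controls. The signal of the probes on these 2 arrays was well clear of background, and on the other 5 it was at background. *Atp6v1g2*, a V1 subunit isoform likewise best known from neurons, followed the same pattern with 5.41, 4.97 and 4.85 with PFJ and 4.83, 5.19, 7.34 and 7.57 in controls on 1 probe, while its other probe was detected on no array and read 5.17, 5.14 and 4.91 with PFJ and 4.89, 4.89, 4.79 and 4.72 in controls. Of 11 nervous tissue genes on the array, a list written after these values were seen, 9 were detected on no array. *Mbp* was detected on control replicates 3 and 4 alone. *Syp* read 7.17, 7.26 and 6.80 with PFJ and 7.41, 7.34, 6.79 and 6.36 in controls, with control replicate 3 only 0.006 below PFJ replicate 3.

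**Figure D3:**
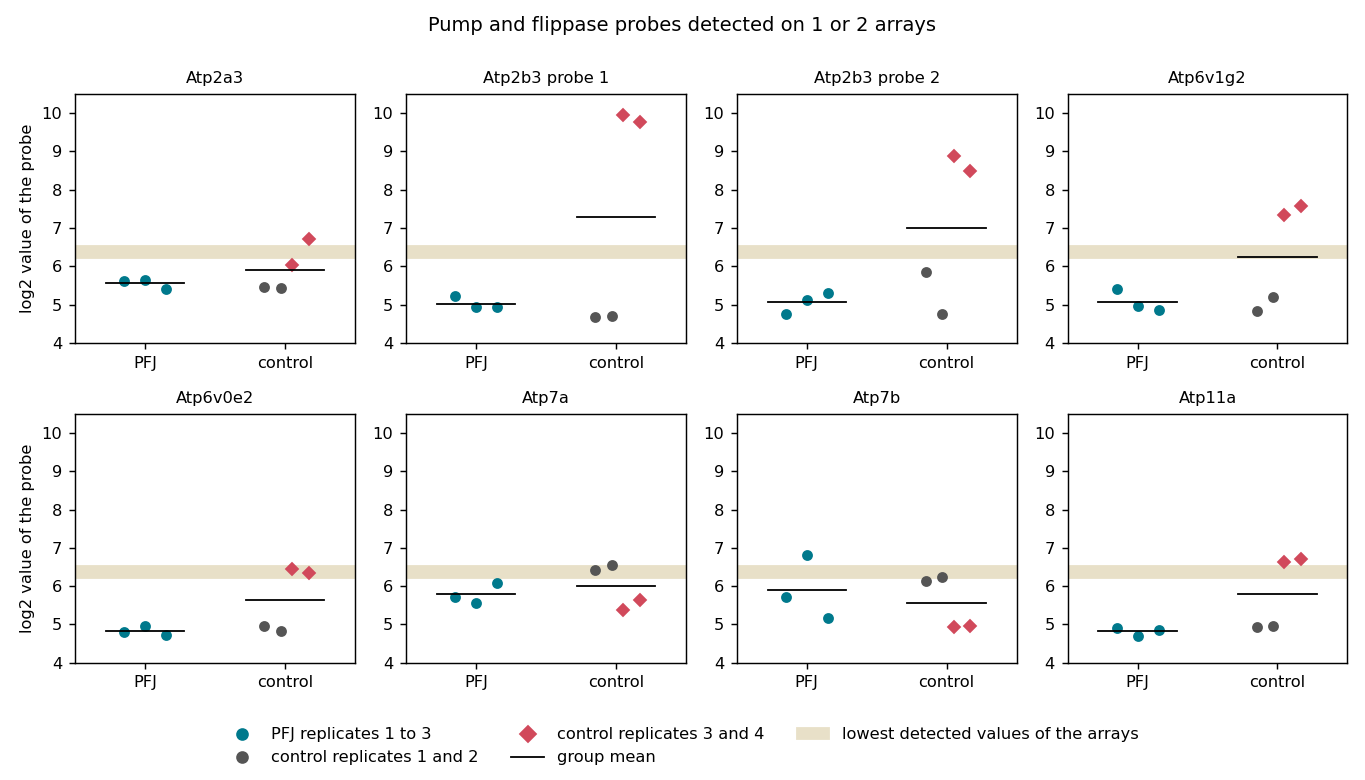
Log2 value of the probe (y axis) for the 8 probes of the 7 genes that were detected on 1 or 2 arrays only, with PFJ arrays on the left, control arrays on the right, lines at the group means and a band for the lowest detected values of the arrays (6.22 to 6.52). Control replicates 3 and 4 (red) are above the band for both *Atp2b3* probes, *Atp6v1g2* and *Atp11a*, where every other array is below it, and are below it for *Atp7a* and *Atp7b*.

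The V-ATPase made up 23 of the 54 genes and 8 of the 15 tested. All 8 log2 fold changes were negative (47.7% of all genes), with a median of -0.36, and 0 passed an adjusted or unadjusted p under 0.05 from limma. *Atp6v1c2* passed the filter through control arrays alone, so counts and medians that hold it are a description. For 6 of the 8, control replicates 3 and 4 were above every other array (26.8% of all genes). Without them, 4 of 6 testable genes were negative (52.7% of all genes), with a median of -0.20 against -0.01 for all genes.

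In the V1 sector, *Atp6v1b2* encodes the widely expressed form of the B subunit, which helps to form the ATP-binding sites. Its values were 10.73, 10.57 and 10.58 with PFJ, and 10.62, 10.98, 12.79 and 12.70 across control replicates 1 to 4. The PFJ arrays spanned less than 0.2, control replicates 1 and 2 lay at or slightly above them, and replicates 3 and 4 were at least 1.71 higher than any other array. The log2 fold change was -1.15 (standard error 0.59, limma adjusted p = 0.561), and -0.18 (standard error 0.21) without those arrays. *Atp6v1f*, the F subunit of the central rotor, had values of 11.82, 11.41 and 11.10 with PFJ, and 11.48, 11.83, 12.76 and 12.60 in controls. Its log2 fold change was -0.72 (standard error 0.37, limma adjusted p = 0.561), and -0.22 without the 2 arrays.

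*Atp6v1c2* encodes an isoform of the C subunit, which holds V1 and V0 together, and is known from kidney and lung. It was detected on control replicates 1, 3 and 4 and on no PFJ array. Its values were 5.73, 5.84 and 6.15 with PFJ, and 6.36, 5.98, 8.24 and 8.46 across control replicates 1 to 4. The groups overlapped, since control replicate 2 lay below PFJ replicate 3, and the limma adjusted p was 0.561. The gene thus passed the filter through control arrays alone, and without any 1 of these 3 it was no longer tested. *Atp6v1b1*, the B subunit of acid-secreting kidney cells, had a probe that was detected on no array, control replicates 3 and 4 included (5.31 and 5.44).

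In the V0 sector, 4 of 8 genes were tested. *Atp6v0d1* encodes the d subunit, which couples the rotor of V1 to the proton ring. The probe used for the gene read 11.26, 11.15 and 11.15 with PFJ, and 11.26, 11.55, 11.75 and 11.93 across control replicates 1 to 4, a log2 fold change of -0.44 (standard error 0.21, limma adjusted p = 0.561). A second kept probe read 9.59, 9.64 and 10.33 with PFJ and 10.19, 10.19, 10.64 and 10.41 in controls. The last kept probe read 9.55, 9.44 and 9.49 with PFJ and 9.74, 9.98, 9.97 and 10.40 in controls. On this last probe every PFJ array was below every control array, replicates 1 and 2 included. The other kept probes of the gene overlapped between the groups. Of all tested genes, taken by 1 probe each, 3.62% had every PFJ array below every control array.

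With each kept probe fitted on its own, the 3 *Atp6v0d1* probes had log2 fold changes of -0.44, -0.50 and -0.53, and -0.23, -0.35 and -0.38 without control replicates 3 and 4. The last had an unadjusted p of 0.0394 over all 7 arrays and 0.102 over 5 from limma (adjusted p = 0.564 and 0.999). In this fit 2 of the 23 member probes were lower at an unadjusted p under 0.05 (2.70% of all kept probes) and 0 were higher (2.26%). The other of the 2 was a probe of *Atp6ap2*. These probes share their RNA and their gene, so their agreement does not add samples.

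*Atp6v0b*, a proteolipid of the proton ring, had values of 12.49, 11.89 and 12.45 with PFJ, and 12.15, 12.23, 12.78 and 13.09 in controls. The same controls were again the highest, by at least 0.28. Its log2 fold change was -0.28 (standard error 0.31, limma adjusted p = 0.66), and 0.09 without the 2 arrays. *Atp6v0a1*, an a subunit that anchors the proton path, showed 11.09, 10.70 and 10.99 with PFJ and 11.33, 11.02, 11.03 and 10.83 in controls, where replicates 3 and 4 lay among the rest. It had a log2 fold change of -0.12, and -0.25 without the 2 arrays. *Atp6v0a2*, the a subunit of the Golgi, was detected on PFJ replicate 2 and control replicates 2 and 3, at 5.75 to 6.96 with PFJ and 5.97 to 7.03 in controls. *Atp6v0e2* was called detected on control replicate 3 alone, but read 4.81, 4.97 and 4.73 with PFJ and 4.95, 4.82, 6.45 and 6.34 in controls, so that replicates 3 and 4 were both at least 1.37 above the other arrays. *Tcirg1*, another a subunit, outside the symbol rule, was the only tested gene of 9 listed for V-ATPase subunits and assembly, at 8.14 to 8.25 with PFJ and 7.90 to 8.30 in controls, with a log2 fold change of 0.10, and 0.12 without replicates 3 and 4.

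*Atp6ap2* encodes the accessory protein also known as the prorenin receptor, which is needed for V-ATPase assembly. The probe used for the gene read 11.40, 11.43 and 11.30 with PFJ, and 11.16, 11.13, 11.81 and 11.85 across control replicates 1 to 4. The PFJ arrays thus lay between the 2 pairs of control arrays. The log2 fold change was -0.11 (standard error 0.25, limma adjusted p = 0.84), and 0.23 (standard error 0.18) without replicates 3 and 4. In that 5-array comparison each PFJ array was above both controls, which held for 1 of 12 members and for 7.23% of all genes.

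The other 3 kept probes of *Atp6ap2* did not show this. Their log2 fold changes were -0.50, -0.98 and -0.98 over all arrays, and -0.13, -0.50 and -0.37 without control replicates 3 and 4. The lowest p was 0.0403 unadjusted over all 7 arrays (limma adjusted p = 0.564), for a probe that read 6.64, 7.34 and 6.32 with PFJ and 7.01, 7.55, 8.29 and 8.15 in controls. The direction of *Atp6ap2* in the 5-array fit therefore depended on the probe. All 4 probes were higher on control replicates 3 and 4 than on every other array.

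**Figure D4:**
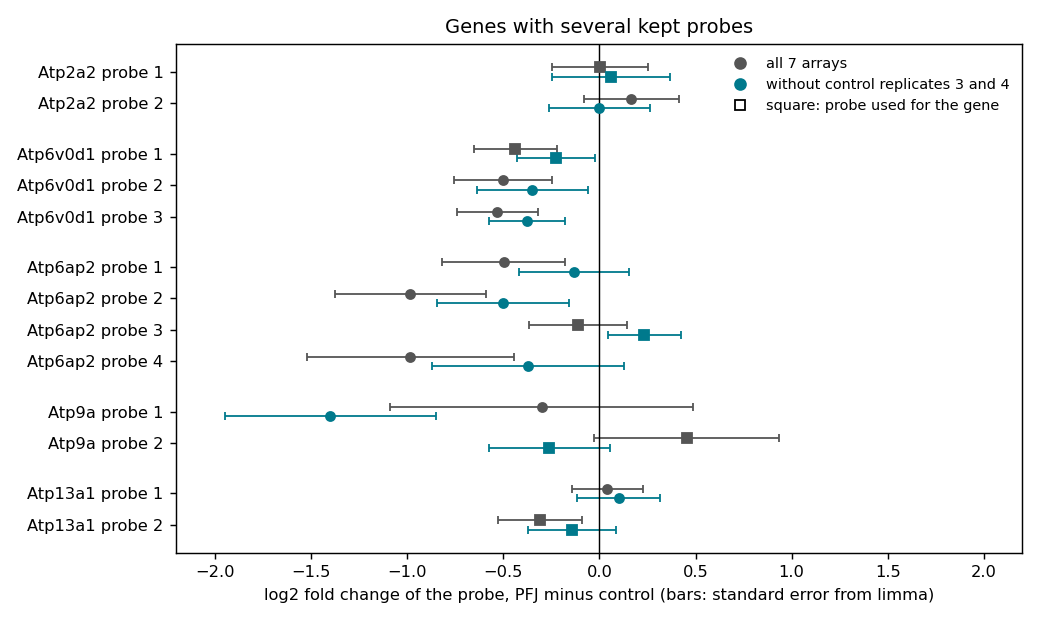
Log2 fold change of each kept probe (x axis, PFJ minus control, bars are standard errors from limma) for the 5 genes with several kept probes, 13 probes in all, over all 7 arrays (grey) and without control replicates 3 and 4 (teal). Squares mark the probe used for the gene. The *Atp6v0d1* probes lie together at -0.44 to -0.53 in the grey fit, whereas those of *Atp6ap2* spread from -0.98 to -0.11.

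The copper pumps were measured near background. *Atp7b*, the pump mutated in Wilson disease, moves copper from hepatocytes into bile and onto ceruloplasmin. Of its 4 probes, 1 was detected, on PFJ replicate 2 alone. It read 5.73, 6.81 and 5.16 with PFJ and 6.14, 6.23, 4.93 and 4.96 across control replicates 1 to 4. *Atp7a*, the copper pump of most other tissues, was detected on control replicates 1 and 2 alone. It read 5.71, 5.55 and 6.09 with PFJ and 6.43, 6.56, 5.38 and 5.63 across control replicates 1 to 4. Neither gene passed the filter, and no test was made.

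Of 6 genes listed around copper transport, 4 were tested. *Cp* encodes ceruloplasmin, the plasma protein that carries the copper loaded by *Atp7b*. It had log2 values of 13.43, 13.77 and 13.57 with PFJ, and 13.60, 13.65, 9.16 and 9.07 in controls, so that control replicates 3 and 4 were the lowest by over 4 log2 units. Its log2 fold change of 2.22 (standard error 1.31, limma adjusted p = 0.561) was -0.03 without them. *Atox1*, the chaperone that hands copper to the pumps, ranged from 12.46 to 13.19 with PFJ and from 11.92 to 13.32 in controls, a log2 fold change of 0.09, and -0.45 without the 2 arrays. *Ccs*, the copper chaperone of superoxide dismutase, and *Slc31a2*, a copper transporter of internal membranes, had log2 fold changes of 0.38 and -0.42 (limma adjusted p = 0.57 and 0.59), and 0.41 and -0.02 without control replicates 3 and 4. Of the 30 partner genes listed, 9 were tested, 5 with a positive and 4 with a negative log2 fold change, and 0 passed an adjusted or unadjusted p under 0.05.

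Of the 14 P4 and P5 ATPases, 4 were tested. *Atp9a*, a P4 ATPase of endosomes and the trans-Golgi, had values of 9.09, 9.30 and 8.76 with PFJ, and 8.91, 9.70, 7.74 and 8.02 across control replicates 1 to 4. It was the only tested member for which control replicates 3 and 4 were below every other array. The log2 fold change of 0.45 (standard error 0.48, limma adjusted p = 0.655) was -0.26 without them. A second kept probe read 6.37, 7.60 and 5.85 with PFJ and 7.52, 8.56, 5.83 and 5.72 in controls. Control replicates 3 and 4 were only 0.02 below PFJ replicate 3, and the probe was undetected on all of these, so their order carries no information.

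For this second *Atp9a* probe the log2 fold change was -0.30 over all arrays, and -1.40 (standard error 0.55) without control replicates 3 and 4. Its unadjusted p of 0.0412 in the 5-array fit (limma adjusted p = 0.999) made it the 1 member probe of 20 that was lower at an unadjusted p under 0.05 there, with 1.63% of all kept probes lower and 1.33% higher. It was detected on PFJ replicate 2 and on control replicates 1 and 2. PFJ replicate 2, at 7.60, lay above control replicate 1, at 7.52, so the groups overlapped.

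*Atp9b*, the relative of *Atp9a* at the trans-Golgi, had values of 8.01, 8.17 and 8.44 with PFJ and 7.92, 8.11, 8.25 and 8.86 in controls, with full overlap and a log2 fold change of -0.08, and 0.20 without replicates 3 and 4. *Atp11a*, a flippase of the plasma membrane, was detected on control replicates 3 and 4 alone, with 4.91, 4.69 and 4.85 under PFJ and 4.92, 4.96, 6.63 and 6.70 in controls, and its other probe was detected on no array. The probes of *Atp8b1*, the flippase of the bile canaliculus whose loss causes cholestasis in humans, and of *Atp10a* and the *Atp8a* genes were detected on no array. The beta subunits of the flippases, *Tmem30a* and *Tmem30b*, were not tested because their probes did not pass the filter.

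Of the P5 ATPases, *Atp13a1* removes misplaced membrane proteins from the endoplasmic reticulum. It had values of 12.77, 12.37 and 12.71 with PFJ, and 12.91, 12.60, 13.20 and 12.99 in controls, a log2 fold change of -0.31 (standard error 0.22, limma adjusted p = 0.568), and -0.14 without control replicates 3 and 4. Its second probe, also detected on all arrays, read 8.25 to 8.65 with PFJ and 8.24 to 8.43 in controls, with a log2 fold change of 0.04, and 0.10 without the 2 arrays. *Atp13a2*, a lysosomal polyamine exporter, was detected on PFJ replicate 1 and control replicates 1, 3 and 4. It read 7.68, 6.14 and 5.99 with PFJ and 7.46, 6.08, 6.92 and 6.74 in controls, so that PFJ replicate 1 and control replicate 1 were the high arrays. Its log2 fold change was -0.20, and -0.74 without PFJ replicate 1.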

How the data were processed

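Total RNA labelled as liver was measured on 7 arrays. The authors extracted an intensity and a detection p-value for each probe with Illumina software (GenomeStudio 2011.1 in the submitters' processing notes). The deposited signal intensities are neither background-subtracted nor normalised. A second deposited table holds intensities that the authors normalised by the rank invariant method, and was used as an alternative. The deposited detection p-values of each array stand in the column after its signal. Median signals were 140.9 to 159.2, and 4689 to 5137 probes per array were detected. The number of arrays limits the precision.

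Here the signals were background-corrected and quantile normalised with neqc in limma 3.58.1 (R 4.3.3) with an offset of 16, which gives log2 values. Kept probes were those detected (p under 0.01) on at least 3 of 7 arrays, and a gene was its kept probe with the highest mean. Groups were compared with lmFit and eBayes and Benjamini-Hochberg adjustment over all 3734 genes, after a check of the fit on simulated data. The simulated arrays varied independently, so that check does not cover arrays that deviate together. In the study's methods the arrays of a group held separate RNA samples, chosen for the highest RNA integrity. The authors removed outlier arrays by clustering. Symbols came from the platform annotation, and 52 of the 54 also name a gene in the RefSeq annotation of the NR assembly mArvNil1.pat.X.

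Members, classes, partner genes and marker lists were chosen with earlier results of these data known. Values on every array are given for the 3 largest fold changes and the highest mean of each class, for genes with control replicates 3 and 4 at least 1 log2 unit outside the other arrays, and for genes at an unadjusted p under 0.05. Others were added after their values were seen. Alternatives covered the offset, background correction, scaling, the authors' values, the detection filter, single probes, the replicate number as a block and leaving out each array.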

Additional observations from a re-analysis of the deposited data

How the results depend on the processing

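Under every alternative tried, 0 members passed an adjusted p under 0.05 from limma. At an unadjusted p under 0.05, 2 members were higher and 1 lower with no filter on detection (*Atp6ap1*, *Atp8a1* and *Atp6v0d1*, the first pair at background on all arrays), with 2.76% of all genes higher and 2.21% lower, and 2 probes were lower when each kept probe was fitted on its own. With 1 array left out, 0 to 4 members were lower. The 4, without control replicate 1, were *Atp1b1*, *Atp6v0d1*, *Atp6v1b2* and *Atp6v1f*, where 6.76% of all genes were lower and 8.42% higher. Without control replicate 2 it was *Atp6v1c2*, with 6.11% of all genes lower and 7.21% higher. *Atp6v1c2* was detected on no PFJ array and entered that fit through control arrays alone, so its lower value there is a description and no support. The cause of these moves was not tested.

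The median log2 fold change of the members was -0.28, and -0.43 to -0.15 with 1 array left out, -0.063 with no filter, where genes at background enter, and -0.069 without control replicates 3 and 4. That of the V1 sector was -1.15 over 3 genes, -0.062 over 13 with no filter, and -0.20 over the 2 still tested without control replicates 3 and 4. Scaling to equal medians moved the median of all genes to -0.18 and that of the members to -0.40, which is -0.22 relative to all genes, and at an unadjusted p under 0.05 it split all genes into 30 higher and 160 lower, against 81 and 97. There the V0 sector had a median of -0.36, against -0.20, and the P4 ATPases -0.11, against 0.19. Leaving out 1 array gave -1.41 to -0.67 for V1, -0.39 to -0.093 for V0, 0.04 to 0.34 for P4 and -0.56 to -0.07 for P5 ATPases. *Atp6v1c2* and *Atp6v0a2* were each tested in only 4 of these 7 fits, so the V1 and V0 medians are not all over the same genes.

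Of 129 member fold changes under the settings other than leaving out 1 array, 120 kept their direction and 9 did not. The 3 settings that changed only the filter or the probes fitted reused the same values of the same probe for each of these genes. Their fold changes equal those of the main fit by construction, so the count of 120 overstates the stability. *Atp2a2* turned to -0.18 with scaling. Without control replicates 3 and 4, *Atp1b1* turned to 0.0033, *Atp2b1* to 0.12, *Atp6v0b* to 0.089, *Atp6ap2* to 0.23, *Atp9a* to -0.26 and *Atp9b* to 0.20. With 1 array left out, 88 of 99 kept their direction, and those that did not ranged from -0.74 to 0.11 (*Atp13a2*), -0.20 to 0.25 (*Atp2a2*), -0.22 to 0.0090 (*Atp6ap2*), -0.23 to 0.23 (*Atp6v0a2*) and -0.20 to 0.11 (*Atp9b*). Control replicates 3 and 4 were above every other array for 17 and below for 3 of 54 members with no filter (13.1 and 12.1% of all genes), and for 13 and 2 of 23 probes when each kept probe counted (25.8 and 30.7% of all kept probes).

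The replicate numbers of the labels were also used as a replicate block. Same-numbered PFJ and control arrays deviated from their group means with correlations of 0.0889, 0.216 and 0.126 across genes, and PFJ replicate 3 did not correlate best with its own number, so the numbers were not taken to pair the arrays. The block gave 0 calls, and turned *Atp6ap2* to 0.0095 and *Atp9b* to 0.11, values near 0 in both fits. The members at or near background, most of them here, have values that the arrays cannot order.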
